A study of Homo sapiens with 6 samples.

Results

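The genes described here are 58 members of the DNA replication machinery and of S phase, chosen by gene symbol from a list of MCM and origin proteins, replicative polymerases, the clamp and its loader, nucleotide synthesis enzymes and their G1/S regulators. All 58 were found among the 58515 gene symbols that stand on a single row of the tables, and all 58 had a mean of at least 1 TPM (a transcript abundance corrected for length and scaled to a common library sum) over the libraries. The cell line MHCC97L, an established line of human hepatocellular carcinoma, was grown as xenografts, and tumour RNA was sequenced in 3 control libraries (Ctrl A, B and C) and 3 libraries from tumours treated with recombinant human lumican (rhLUM A, B and C). Lumican is a secreted proteoglycan of the extracellular matrix. All groups share the cell line and the xenograft setting. The dose, route and duration of treatment, what the Ctrl tumours received, the host strain and age, and whether each library stands for its own tumour, are not stated in the labels. All p-values rest on the spread among 3 libraries a group, and that spread may be technical.

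Replication starts at origins that the origin recognition complex marks in G1, where CDC6 and CDT1 load the ring-shaped MCM2-7 helicase. At the start of S phase, kinases, CDC45 and the GINS complex turn the loaded ring into an active helicase, polymerase alpha-primase lays down primers, and polymerases epsilon and delta extend them on the leading and lagging strands with the sliding clamp PCNA. Many of these genes are transcribed under E2F factors as cells pass from G1 into S phase, and proliferating tumours, liver cancers included, express them.

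The rhLUM tumours differed from Ctrl in both directions across the machinery: the helicase, its loader CDC6, the primase and ribonucleotide reductase rose, while the polymerase epsilon genes POLE and POLE2, the clamp PCNA and the ligase LIG1 fell. In limma's test over 14781 genes, 38 of the 58 members rose, 6 fell and 14 did not pass an adjusted p of 0.05. Among all genes tested 44.5% rose and 22.3% fell, against 65.5% and 10.3% of the members. The median difference of rhLUM from Ctrl on the log2(TPM + 1) scale was 0.35 for the members and 0.16 for all genes. Because TPM is a share, the zero of this scale moves with abundant genes. After median-of-ratios scaling, which centres on the typical gene, 28 members (48.3%) rose and 9 (15.5%) fell, against 32.7% and 32.5% of all genes. The median was then 0.16 for the members and -0.02 for all genes. After upper quartile scaling, 27 of the 58 members rose and 12 of the 58 fell, against 30.6% and 34.6% of all genes. RFC1 was lost beside the rises lost under median-of-ratios scaling. After a correction of the differences for length and GC content, 28 members (48.3%) rose and 12 (20.7%) fell. Of the genes it could be applied to, 34.2% rose and 31.9% fell. That correction ended the rises of MCM8, GINS4, RFC1, RFC3, RFC5, DUT, CCNE2 and UHRF1, and called MCM9, ORC2, CDC7, TIMELESS, CLSPN and WDHD1 lower. The summed level of the members was 2074 ± 26.8 TPM in Ctrl and 2684 ± 21.6 TPM in rhLUM (SD, n = 3 per group). Summed levels here and below are as deposited. Median-of-ratios scaling divides each library by a factor, 0.930 to 0.936 in Ctrl and 1.07 to 1.08 in rhLUM. The libraries of the groups did not overlap for 46 members (79.3%), 40 with rhLUM above and 6 with rhLUM below, against 71.4% of all genes tested. In a bulk tumour, a larger share of cells in S phase, more RNA of these genes per cell and a changed mix of cells cannot be told apart.

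**Figure D1:**
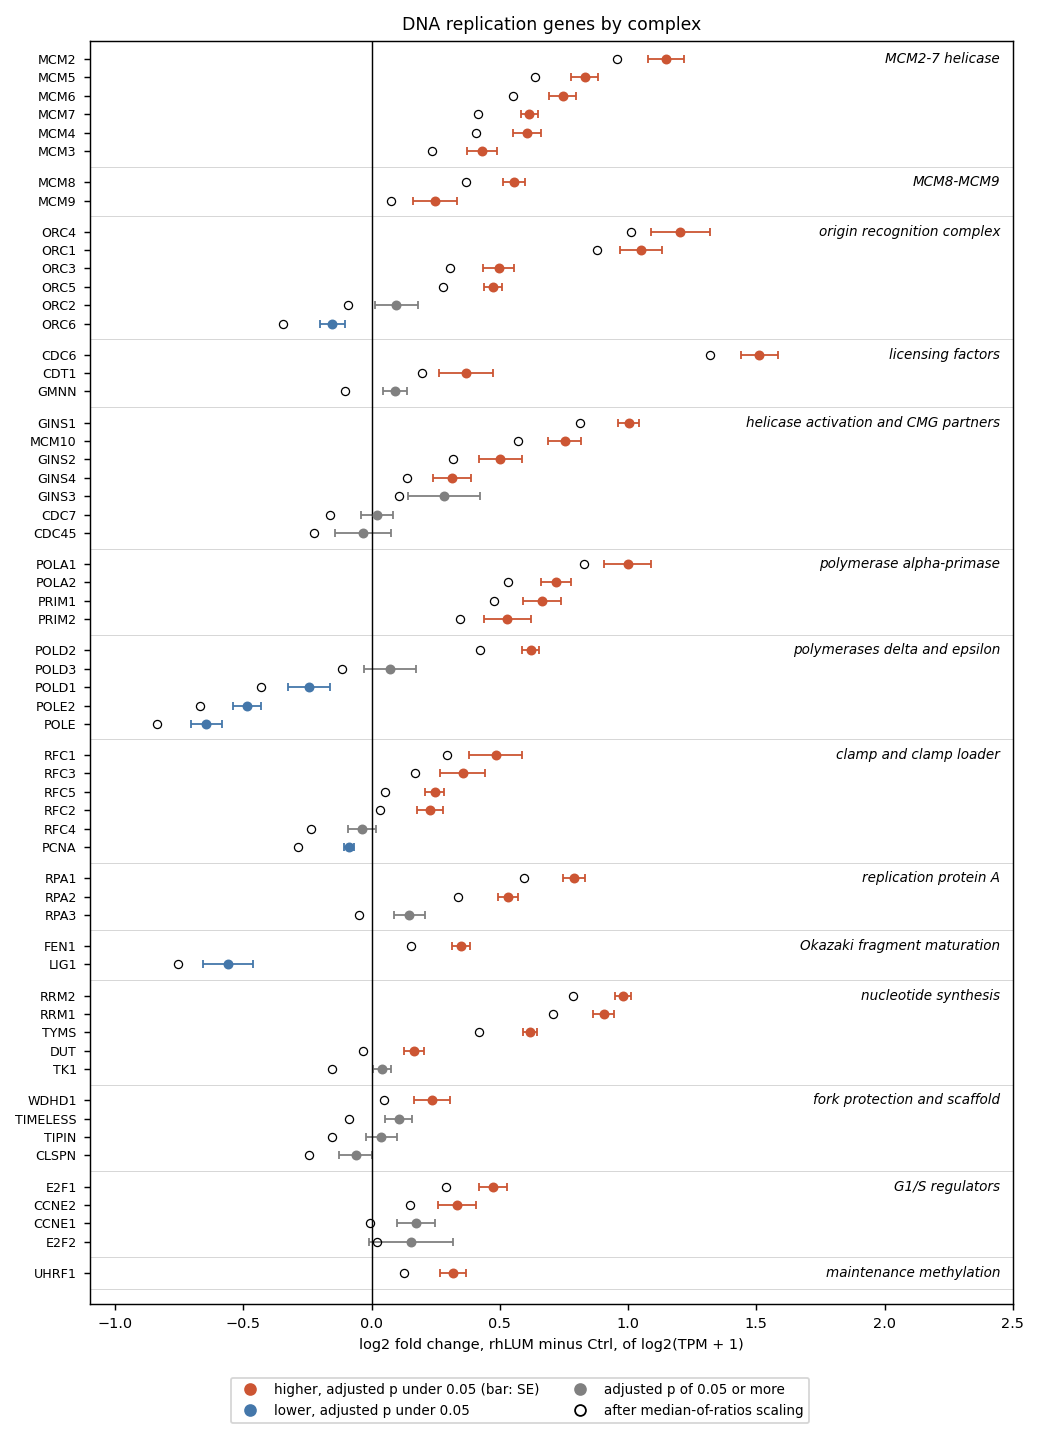
Difference of each of the 58 members between rhLUM and Ctrl on the log2(TPM + 1) scale (horizontal axis), by complex (vertical axis), with filled points coloured by the limma call, bars for the SE and open circles for the difference after median-of-ratios scaling. All MCM2-7 and polymerase alpha-primase genes lie to the right of zero, and 3 of the 5 polymerase delta and epsilon genes lie to the left as called falls.

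Promoter sequence is shown for genes that moved in opposite directions, picked among those with a match to the E2F letters before the start. A match in the genes shown is therefore a condition of the choice and not a result. RefSeq windows of 300 bases (GRCh38.p14), from 250 before to 50 after the start of transcription, were matched to 51 members. The E2F letters searched were TTTCGCGC, TTTGGCGC, TTTCCCGC and TTTGCCGC on both strands, and MCM6 shows how matches can overlap. They were found in 27 of the 51 members (52.9%) and in 3.99% of all 27305 genes with a window. The share was 17 of 33 among members that rose, 4 of 6 among those that fell and 6 of 12 among those not called. ORC6 and POLD1 were the members that fell without a match. The letters CCAAT were found in 60.8% of members and 39.7% of all genes, and the CHR letters TTTGAA in 3.92% and 18.2%. All genes with a window were counted here, expressed in these tumours or not, and base composition was not matched. A match is a description of the sequence and not a measured binding site. The 250 bases before the start are given 5′ to 3′ on the gene's strand, with E2F letters on either strand in capitals:
MCM6 (chr2:135876444-135876693, minus strand): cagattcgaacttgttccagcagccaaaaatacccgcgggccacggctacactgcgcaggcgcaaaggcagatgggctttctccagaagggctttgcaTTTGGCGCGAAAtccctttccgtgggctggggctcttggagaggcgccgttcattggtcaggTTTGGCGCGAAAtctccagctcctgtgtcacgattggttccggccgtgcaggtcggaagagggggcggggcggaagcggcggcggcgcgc
POLA1 (chrX:24693668-24693917, plus strand): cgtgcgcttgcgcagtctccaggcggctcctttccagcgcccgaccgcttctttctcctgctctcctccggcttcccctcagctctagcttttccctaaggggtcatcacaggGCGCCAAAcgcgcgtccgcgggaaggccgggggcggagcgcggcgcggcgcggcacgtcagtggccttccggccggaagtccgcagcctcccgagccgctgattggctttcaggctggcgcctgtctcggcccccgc
E2F1 (chr20:33686386-33686635, minus strand): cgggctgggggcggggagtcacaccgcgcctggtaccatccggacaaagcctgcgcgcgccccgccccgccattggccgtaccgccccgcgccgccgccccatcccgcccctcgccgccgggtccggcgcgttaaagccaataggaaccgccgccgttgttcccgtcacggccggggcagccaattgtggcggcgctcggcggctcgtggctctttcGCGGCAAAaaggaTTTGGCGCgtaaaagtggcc
POLE (chr12:132687343-132687592, minus strand): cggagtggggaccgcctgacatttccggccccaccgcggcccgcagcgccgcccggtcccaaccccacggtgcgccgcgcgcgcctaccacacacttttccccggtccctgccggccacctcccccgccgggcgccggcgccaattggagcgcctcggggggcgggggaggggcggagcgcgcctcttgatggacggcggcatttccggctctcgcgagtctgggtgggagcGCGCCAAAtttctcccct
PCNA (chr20:5126623-5126872, minus strand): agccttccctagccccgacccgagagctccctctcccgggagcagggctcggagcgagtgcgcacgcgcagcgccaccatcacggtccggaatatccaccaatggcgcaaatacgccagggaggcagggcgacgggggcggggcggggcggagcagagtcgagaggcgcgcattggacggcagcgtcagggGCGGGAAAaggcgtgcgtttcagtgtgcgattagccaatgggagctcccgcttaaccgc
MCM6, POLA1 and E2F1 rose with rhLUM, and POLE and PCNA fell. The nearest match began 86 bases before the start in MCM6, 137 in POLA1, 20 in E2F1, 18 in POLE and 59 in PCNA.

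At the origins, 4 of the 6 origin recognition genes rose, 1 fell and ORC2 was not called, with a median log2 difference of 0.48. ORC5, a core subunit, had the smallest adjusted p of the complex: its levels were 38.3, 37.6 and 38.1 TPM in Ctrl A, B and C and 53.0, 54.3 and 52.1 TPM in rhLUM A, B and C (difference 0.47 ± 0.03 SE, adjusted p = 1.72e-05, limma). The groups lay far apart and each was tight. ORC1, an ATPase subunit, was at 4.12, 3.82 and 4.62 TPM in Ctrl and 9.93, 9.25 and 9.98 TPM in rhLUM, a ratio of means of 2.32. ORC4 went from 20.1, 20.3 and 26.7 TPM to 53.3, 56.5 and 47.9 TPM, a ratio of 2.35. Every rhLUM library exceeded every Ctrl library in both genes. ORC3 rose from 20.1 ± 0.477 to 28.8 ± 2.21 TPM, and ORC2 overlapped at 18.6 ± 0.654 and 20.0 ± 2.37 TPM. ORC6, the least conserved subunit, went the other way, with 37.7, 39.5 and 36.2 TPM in Ctrl and 33.2, 35.5 and 32.9 TPM in rhLUM (difference -0.15 ± 0.05, adjusted p = 0.0279, limma). The ORC6 groups came within 1 TPM of each other, and its call was lost when Ctrl A, Ctrl B, rhLUM A or rhLUM C was left out (adjusted p up to 0.0885). After median-of-ratios scaling the ORC6 difference was -0.35 (adjusted p = 0.000729, limma). ORC1 accordingly moved from 0.111 ± 0.0156 of the ORC6 level to 0.287 ± 0.0234, a ratio within a library that scaling does not touch. The length and GC correction moves single genes by different amounts, and ratios here and below are not corrected for it. After it the ORC1 difference was 0.84, against 1.05 as deposited, and the ORC6 difference was -0.23. Gene pairs for such ratios were chosen after their values were seen and carry no test.

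Among the licensing factors, CDC6 (ENSG00000094804.10, chr17:40287633-40304657 in GRCh38) had the largest difference of all 58 members. Its levels were 15.2, 15.1 and 15.7 TPM in Ctrl and 40.6, 47.4 and 49.0 TPM in rhLUM, a ratio of means of 2.98 (difference 1.51 ± 0.07, adjusted p = 2.62e-06, limma). The lowest rhLUM library stood well above the highest Ctrl library. CDT1, which brings the MCM ring to the origin with CDC6, rose less, from 5.48 ± 0.410 to 7.40 ± 1.02 TPM. Its call was lost without Ctrl A, rhLUM A or rhLUM B (adjusted p up to 0.0618, limma) and after median-of-ratios scaling. GMNN, the inhibitor of CDT1, overlapped between groups at 51.8 ± 2.21 and 55.3 ± 2.25 TPM and was not called. CDC6 thereby moved from 0.296 ± 0.0110 to 0.825 ± 0.0575 of the GMNN level.

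All 6 genes of the MCM2-7 helicase rose, also after median-of-ratios scaling, with a median difference of 0.68 (0.48 after scaling). Their summed level was 369 ± 17.9 TPM in Ctrl and 583 ± 4.11 TPM in rhLUM. MCM7 had the smallest adjusted p, with 125, 129 and 135 TPM in Ctrl and 198, 196 and 201 TPM in rhLUM (difference 0.61 ± 0.03, adjusted p = 4.41e-06, limma). MCM2 had the largest ratio of means, 2.29, from 15.2, 17.9 and 16.2 TPM to 39.4, 38.1 and 35.2 TPM. MCM3 had the smallest, 1.35, from 36.9, 40.4 and 42.4 TPM to 52.1, 56.4 and 53.7 TPM. No library of the groups overlapped in any of the 6 genes, although the subunits of this ring, which is built from 1 copy of each, did not move by equal amounts. MCM4, MCM5 and MCM6 went from 124 ± 9.96, 28.1 ± 1.34 and 31.3 ± 2.04 TPM to 189 ± 1.79, 50.8 ± 2.35 and 53.0 ± 0.758 TPM. The highest subunit exceeded the lowest by 7.34 to 8.33 times in the Ctrl libraries and by 5.04 to 5.71 times in the rhLUM libraries. MCM2 rose from 0.127 ± 0.0107 to 0.189 ± 0.0124 of the MCM7 level, whereas MCM4 stayed within overlapping ranges, at 0.958 ± 0.0591 and 0.952 ± 0.00398. In the gene models, 22.7% of MCM2 exon bases also lie in the antisense gene AC023593.1, which was listed at 0.

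MCM8 and MCM9 form a separate helicase used in recombination repair. MCM8 was at 16.3, 15.7 and 16.0 TPM in Ctrl and 23.9, 24.4 and 23.7 TPM in rhLUM (difference 0.56 ± 0.04, adjusted p = 2.28e-05, limma). The groups did not overlap, but correcting for length and GC content cut the MCM8 difference to 0.10 and ended its call (adjusted p = 0.0875, limma). MCM9 was at 6.17 ± 0.599 and 7.5 ± 0.444 TPM and rose as deposited. Its call was lost after median-of-ratios scaling and without Ctrl A, Ctrl C, rhLUM B or rhLUM C (adjusted p up to 0.113, limma), and the same correction turned its direction and called it lower (-0.23).

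**Figure D2:**
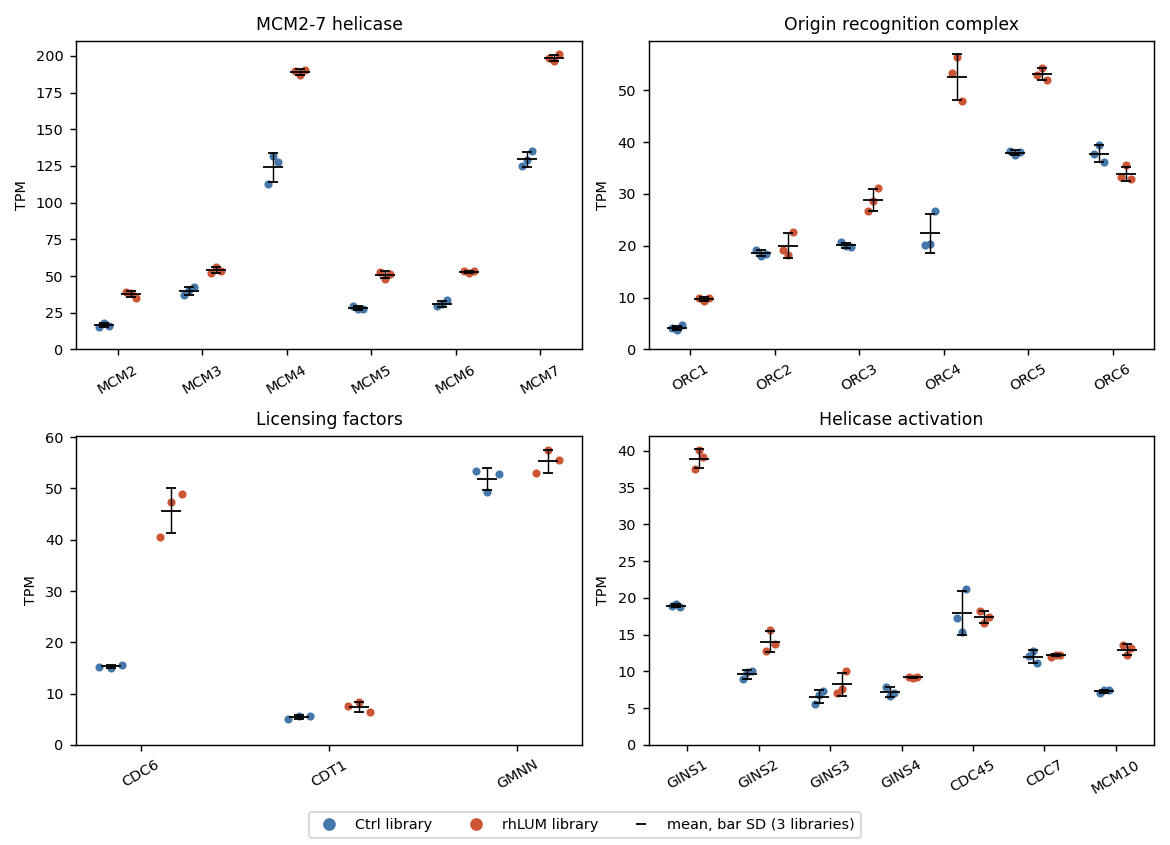
TPM in each library (vertical axes, linear from 0) for genes of origin licensing and the helicase, with Ctrl and rhLUM libraries as points and mean and SD as lines (3 libraries per group). CDC6 and all MCM2-7 genes show rhLUM points above every Ctrl point, and ORC6 shows them below.

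Of the 7 genes that activate the helicase or travel with it, 4 rose and 3 were not called (median difference 0.31). GINS1 (ENSG00000101003.9, chr20:25407727-25452628 in GRCh38), a subunit of the GINS complex, was at 18.9, 19.2 and 18.7 TPM in Ctrl and 37.5, 40.1 and 39.1 TPM in rhLUM, a ratio of 2.06 (difference 1.00 ± 0.04, adjusted p = 1.5e-06, limma). The replicates of each group were close and the groups far apart. Its partners moved less: GINS2 rose from 9.60 ± 0.591 to 14.0 ± 1.45 TPM and GINS4 from 7.22 ± 0.654 to 9.20 ± 0.0777 TPM, the latter a call lost after median-of-ratios scaling. GINS3, at 6.55 ± 0.864 and 8.23 ± 1.60 TPM, overlapped between groups and was not called. MCM10, which helps to open the origin, rose from 7.29 ± 0.211 to 13.0 ± 0.719 TPM. CDC45, which completes the active helicase with GINS, was at 17.3, 15.4 and 21.2 TPM in Ctrl and 18.2, 16.6 and 17.4 TPM in rhLUM, with overlapping groups. CDC7, the kinase that fires origins, was at 12.0 ± 0.862 and 12.2 ± 0.136 TPM. GINS1 was 1.07 ± 0.181 times the CDC45 level in Ctrl and 2.25 ± 0.181 times in rhLUM.

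All 4 genes of polymerase alpha-primase, the enzyme that starts each new strand, rose in both scalings, with a median difference of 0.69 (0.50 after median-of-ratios scaling). POLA2, the regulatory subunit, had the smallest adjusted p, with 15.1, 15.3 and 14.2 TPM in Ctrl and 26.0, 23.6 and 25.9 TPM in rhLUM (difference 0.72 ± 0.06, adjusted p = 3.05e-05, limma). POLA1, the catalytic subunit, went from 3.47, 4.37 and 4.25 TPM to 9.02, 8.63 and 9.42 TPM, a ratio of 2.24. The groups did not overlap in either gene. The primase subunits PRIM1 and PRIM2 rose from 15.9 ± 1.65 and 9.84 ± 0.867 TPM to 25.8 ± 0.0624 and 14.7 ± 1.47 TPM.

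The polymerases that extend the primers showed the opposite balance, with 1 of 5 genes higher, 3 lower and 1 not called in both scalings. POLE (ENSG00000177084.16, chr12:132623753-132687365 in GRCh38), the catalytic subunit of the leading-strand polymerase epsilon, was at 51.4, 54.7 and 58.2 TPM in Ctrl and 37.0, 33.1 and 34.0 TPM in rhLUM (difference -0.64 ± 0.06, adjusted p = 7.43e-05, limma). POLE2, a non-catalytic subunit, was at 17.9, 18.6 and 17.2 TPM in Ctrl and 12.6, 12.9 and 11.9 TPM in rhLUM (difference -0.48 ± 0.05, adjusted p = 0.000183). Both genes had every rhLUM library below every Ctrl library, and the ratio of POLE2 to POLE overlapped between groups, at 0.327 ± 0.0287 and 0.361 ± 0.0267. POLD1, the catalytic subunit of the lagging-strand polymerase delta, was at 18.9, 17.8 and 20.3 TPM in Ctrl and 14.3, 17.5 and 16.0 TPM in rhLUM. The POLD1 groups nearly touched, and its call (adjusted p = 0.0321, limma) was lost without Ctrl A, Ctrl C, rhLUM A or rhLUM C (up to 0.102). After median-of-ratios scaling the POLD1 difference was -0.43 (adjusted p = 0.00285, limma). POLD2, the accessory subunit of the same polymerase, rose from 58.2, 56.1 and 56.2 TPM to 87.8, 85.6 and 90.3 TPM (difference 0.62 ± 0.03, adjusted p = 4.75e-06, limma). POLD3 overlapped at 15.6 ± 0.629 and 16.6 ± 2.48 TPM. Subunits of polymerase delta therefore moved apart, and POLD1 went from 0.335 ± 0.0237 to 0.181 ± 0.0207 of the POLD2 level. The POLE level was 13.7 ± 1.14 times that of POLA1 in Ctrl and 3.85 ± 0.249 times in rhLUM. The summed level of the 5 genes was 164 ± 2.38 and 168 ± 1.39 TPM as deposited.

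**Figure D3:**
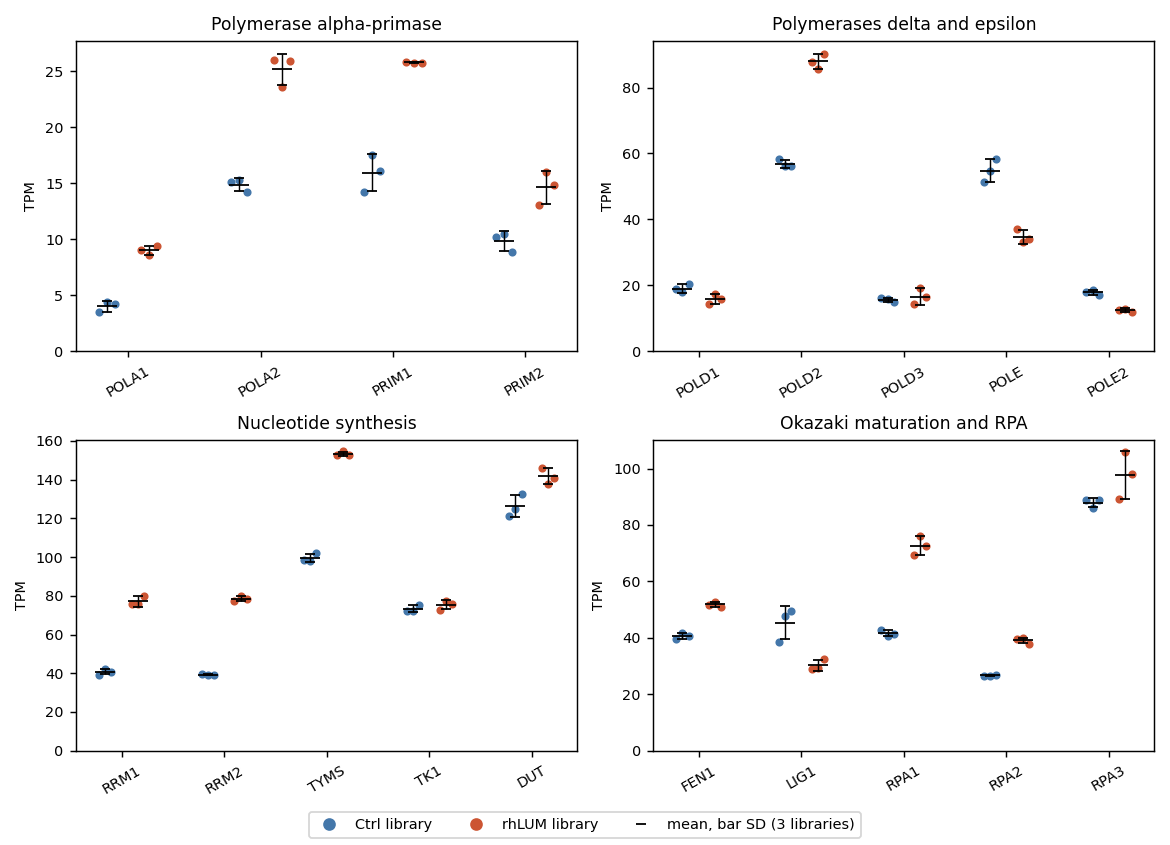
TPM in each library (vertical axes, linear from 0) for polymerase, nucleotide synthesis, Okazaki fragment and RPA genes, with Ctrl and rhLUM libraries as points and mean and SD as lines (3 libraries per group). POLE and LIG1 have rhLUM points below every Ctrl point, and POLD2, RRM1, RRM2 and TYMS have them above.

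PCNA, the sliding clamp that holds polymerases on DNA, had the highest mean level of the 58 members and fell by a small amount as deposited. It was at 232, 226 and 229 TPM in Ctrl and 216, 214 and 217 TPM in rhLUM (difference -0.09 ± 0.02, adjusted p = 0.00762, limma). The groups did not overlap, and the ratio of means was 0.941. The PCNA difference was -0.29 after median-of-ratios scaling (adjusted p = 2.8e-05, limma) and -0.32 after upper quartile scaling. It was -0.10 after the length and GC correction. PCNA went from 1.77 ± 0.0846 to 1.09 ± 0.00648 times the level of MCM7. Of the clamp loader, RFC5 had the smallest adjusted p, with 39.6, 37.8 and 37.1 TPM in Ctrl and 46.2, 45.1 and 45.0 TPM in rhLUM (difference 0.25 ± 0.04, adjusted p = 0.000993, limma). RFC1, the large subunit, rose from 21.4 ± 2.23 to 30.3 ± 3.59 TPM. Its call held after median-of-ratios scaling but was lost after upper quartile scaling (adjusted p = 0.0611, limma) and after the length and GC correction (adjusted p = 0.354). The calls of RFC2, RFC3 and RFC5 were lost after median-of-ratios scaling, and that of RFC2 held after the length and GC correction (difference 0.18, adjusted p = 0.0127, limma). RFC2 and RFC3 stood at 29.2 ± 1.11 and 12.6 ± 1.39 TPM in Ctrl and at 34.3 ± 1.59 and 16.4 ± 1.25 TPM in rhLUM, and the RFC2 difference was -0.0013 after upper quartile scaling. RFC4 overlapped at 86.0 ± 4.45 and 83.7 ± 4.83 TPM and was called lower after median-of-ratios scaling.

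The single-stranded DNA binding complex RPA had 2 genes higher and 1 not called. RPA1, its large subunit, was at 42.8, 40.6 and 41.5 TPM in Ctrl and 69.3, 76.2 and 72.5 TPM in rhLUM (difference 0.79 ± 0.04, adjusted p = 5.47e-06, limma). RPA2 rose from 26.7 ± 0.232 to 39.1 ± 1.02 TPM. RPA3, the smallest subunit, was at 88.0 ± 1.55 and 97.7 ± 8.37 TPM, and its adjusted p was 0.0656. RPA1 moved from 0.473 ± 0.00733 to 0.746 ± 0.0296 of the RPA3 level. The pair that finishes Okazaki fragments split. FEN1, the flap nuclease, was at 39.6, 41.6 and 40.5 TPM in Ctrl and 51.8, 52.9 and 51.1 TPM in rhLUM (difference 0.35 ± 0.04, adjusted p = 0.000108, limma). LIG1 (ENSG00000105486.13, chr19:48115445-48170603 in GRCh38), the ligase that seals the nick, was at 38.7, 47.8 and 49.5 TPM in Ctrl and 29.1, 29.2 and 32.6 TPM in rhLUM (difference -0.56 ± 0.10, adjusted p = 0.00163, limma). Neither gene had overlapping groups, and LIG1 went from 1.12 ± 0.125 to 0.584 ± 0.0470 times the FEN1 level.

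**Figure D4:**
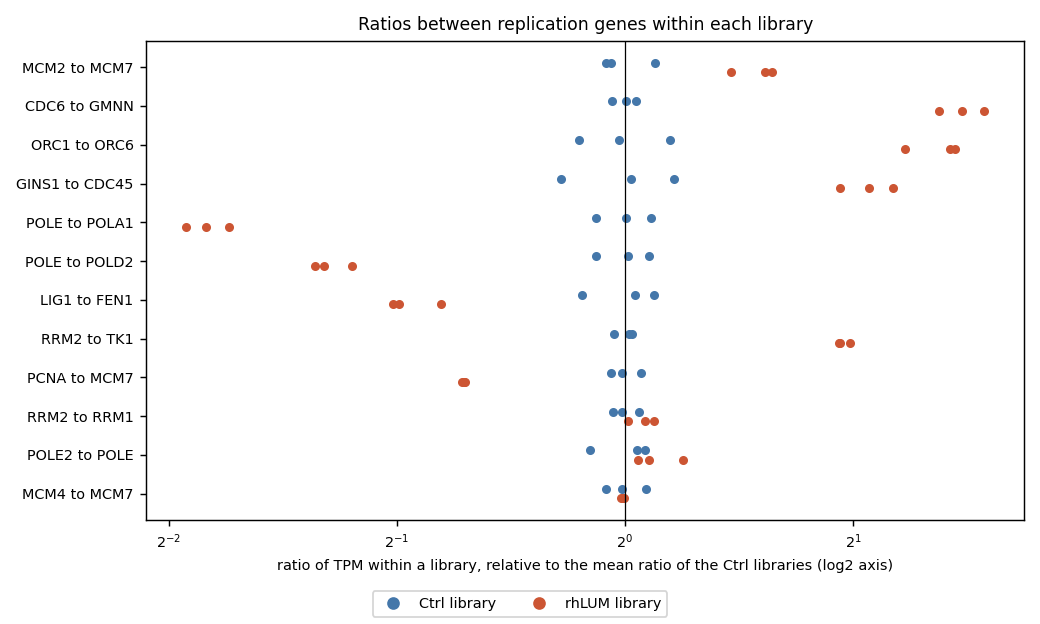
Ratios of TPM between pairs of members within each library, relative to the mean ratio of the Ctrl libraries (horizontal axis, log2 scale), for Ctrl and rhLUM libraries as points, with the pairs on the vertical axis. POLE to POLA1 and LIG1 to FEN1 are lower in all rhLUM libraries, CDC6 to GMNN and RRM2 to TK1 are higher, and MCM4 to MCM7 overlaps.

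Of the 5 nucleotide synthesis genes, 4 rose and 1 was not called (3 higher and 1 lower after median-of-ratios scaling). RRM2 (ENSG00000171848.14, chr2:10120698-10131419 in GRCh38), the regulated subunit of ribonucleotide reductase, was at 39.6, 39.2 and 39.0 TPM in Ctrl and 77.5, 79.8 and 78.1 TPM in rhLUM (difference 0.98 ± 0.03, adjusted p = 4.26e-07, limma). It had the smallest adjusted p of the 58 members. Its partner RRM1 rose from 40.7 ± 1.35 to 77.1 ± 2.64 TPM, and the RRM2 to RRM1 ratio overlapped between groups, at 0.966 ± 0.0381 and 1.02 ± 0.0410. TYMS, which makes thymidylate de novo, rose from 99.6 ± 2.07 to 153 ± 1.12 TPM. In the gene models 39.1% of TYMS exon bases also lie in ENOSF1 on the opposite strand, whose level was 60.7 TPM in Ctrl and 39.2 TPM in rhLUM. Whether counting used strand is not given in the sources used here. TK1, the salvage thymidine kinase, overlapped at 73.3 ± 1.79 and 75.4 ± 2.36 TPM, and was called lower after median-of-ratios scaling. RRM2 moved from 0.537 ± 0.0158 to 1.04 ± 0.0203 times the TK1 level. DUT, which removes dUTP, rose from 126 ± 5.68 to 142 ± 4.13 TPM as deposited (difference 0.16 ± 0.04), but its difference was -0.03 after median-of-ratios scaling. Read sharing with pseudogenes makes levels uncertain for 9 members that the annotation names pseudogenes after, DUT with 8, PCNA, RPA2 and RRM2 with 3 each, TYMS with 2, and POLD2, RFC3, RFC5 and FEN1 with 1 each.

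Of the 4 genes that guard or scaffold the moving fork, 1 rose and 3 were not called. WDHD1, which ties polymerase alpha to the helicase, was at 13.1, 12.7 and 11.1 TPM in Ctrl and 14.7, 14.2 and 14.9 TPM in rhLUM (difference 0.23 ± 0.07, adjusted p = 0.0212, limma). The groups lay close, and the call was lost after median-of-ratios scaling and without rhLUM A or rhLUM C (adjusted p up to 0.0620, limma). After the length and GC correction WDHD1 was called lower (-0.19). TIMELESS and TIPIN, the pair that steadies the fork, overlapped at 36.6 ± 1.85 and 39.5 ± 1.79 TPM and at 23.5 ± 1.40 and 24.2 ± 1.2 TPM. CLSPN, the checkpoint mediator, was at 11.6 ± 0.0551 and 11.1 ± 0.783 TPM and was called lower after median-of-ratios scaling. The median difference of the 4 genes was 0.07 as deposited and -0.12 after median-of-ratios scaling.

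Upstream of S phase, 2 of the 4 G1/S regulators rose. E2F1, a transcription factor of replication genes, was at 11.8, 11.8 and 12.6 TPM in Ctrl and 17.6, 16.4 and 17.6 TPM in rhLUM (difference 0.47 ± 0.05, adjusted p = 0.000201, limma). All rhLUM libraries exceeded all Ctrl libraries. CCNE2, a cyclin E that activates CDK2, rose from 10.5 ± 0.812 to 13.5 ± 0.776 TPM, a call lost after median-of-ratios scaling. In the gene models 37.0% of its exon bases lie in INTS8 on the opposite strand, whose level was 109 TPM in Ctrl and 121 TPM in rhLUM. E2F2, the lowest of the members, and CCNE1 were not called, at 1.94 ± 0.267 and 2.30 ± 0.624 TPM and at 9.53 ± 0.266 and 10.9 ± 1.02 TPM. UHRF1, which guides maintenance methylation behind the fork, was at 24.3, 24.3 and 25.8 TPM in Ctrl and 29.4, 31.7 and 32.4 TPM in rhLUM (difference 0.32 ± 0.05, adjusted p = 0.00112, limma). UHRF1 groups were apart, and the call was lost after median-of-ratios scaling.

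A further list of 56 genes that work beside the members held 35 higher (62.5%), 9 lower (16.1%) and 12 not called. Of all genes tested, 44.5% rose and 22.3% fell. The median difference was 0.42 for the list and 0.16 for all genes. After median-of-ratios scaling 30 (53.6%) rose and 15 (26.8%) fell, against 32.7% and 32.5% of all genes. The medians were then 0.24 and -0.02. The remaining subunits of polymerase epsilon split: POLE3, a histone-fold subunit, rose from 67.7 ± 1.05 to 102 ± 1.38 TPM, and its partner POLE4 fell from 137 ± 4.95 to 84.7 ± 5.37 TPM. POLD4, the small subunit of polymerase delta, fell from 67.5 ± 1.70 to 52.9 ± 2.61 TPM. RECQL4, a helicase linked to origin firing, fell from 29.6 ± 0.829 to 20.2 ± 1.46 TPM. The smallest adjusted p-values among its rises were those of RBL1, the pocket protein p107, from 6.00 ± 0.239 to 19.1 ± 1.11 TPM, and SAMHD1, a dNTP hydrolase, from 4.44 ± 0.205 to 14.3 ± 0.302 TPM, with POLE3 and ATAD2. ATAD2, a chromatin factor of dividing cells, rose from 32.1 ± 0.359 to 56.2 ± 0.576 TPM. CDKN1C, the CDK inhibitor p57, fell from 69.8 ± 3.57 to 35.7 ± 1.57 TPM. Of 20 mitosis genes, 18 (90%) rose and 2 were not called, against 44.5% higher among all genes. Their median difference was 0.54. Their summed levels were 932 to 950.1 TPM in Ctrl and 1359 to 1379 TPM in rhLUM. After median-of-ratios scaling 16 (80%) rose and 2 (10%) fell, AURKB and CENPF, named after their values were seen, and the median was 0.35. Of all genes, 32.7% rose and 32.5% fell under that scaling. The length and GC correction left 15 mitosis genes (75%) higher and 1 (5%) lower. Of all genes it could be applied to, 34.2% rose and 31.9% fell.

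Values of the whole libraries moved with the groups too. Mitochondrially encoded transcripts took 20.6 ± 0.0784% of TPM in Ctrl and 14.4 ± 0.101% in rhLUM. Rescaling without them left 33 members (56.9%) higher and 7 (12.1%) lower, against 38.1% and 27.5% of all genes. Of 8 hepatic tumour cell markers, 4 of 7 tested (57.1%) rose and 2 (28.6%) fell, against 44.5% and 22.3% of all genes. Their summed levels were 2668 to 2690 TPM in Ctrl and 4706 to 4729 TPM in rhLUM. KRT8, KRT18 and ALB made up most of it, at 1060 ± 4.73, 901 ± 9.19 and 289 ± 3.08 TPM in Ctrl. In rhLUM they were at 2474 ± 9.59, 1150 ± 3.51 and 825 ± 15.4 TPM. HNF4A also rose, SERPINA1 fell from 379 ± 2.27 to 208 ± 5.32 TPM, EPCAM fell from 2.03 ± 0.322 to 0.82 ± 0.304 TPM, and AFP was not called. Macrophage markers (8 listed, 3 tested, 2 higher, 1 lower) summed to 222 to 224 TPM and 302 to 306 TPM, with 5 of the 8 under 1 TPM. Most of that sum was LYZ, at 180 ± 2.05 TPM in Ctrl and 241 ± 3.34 TPM in rhLUM. CD68 rose from 33.6 ± 0.806 to 58.1 ± 2.24 TPM, and ITGAM fell from 8.01 ± 0.691 to 3.84 ± 1.00 TPM. Fibroblast markers (10 listed, 5 tested, 2 higher, 1 lower), LUM among them, summed to 38.2 to 41.8 TPM and 102 to 113 TPM. LUM alone was at 24.7 ± 1.56 and 95.5 ± 3.54 TPM, and the other 9 markers summed to 14.8 ± 0.410 and 11.7 ± 1.96 TPM. Endothelial markers (8 listed, 3 tested, 1 higher, 1 lower) summed to 21.7 to 23.0 TPM and 26.9 to 31.8 TPM, with 5 of the 8 under 1 TPM. Most of that sum was PECAM1, which rose from 16.4 ± 0.285 to 25.3 ± 2.43 TPM. CDH5 fell from 3.10 ± 0.344 to 0.45 ± 0.0529 TPM, and KDR was not called. Lymphocyte markers (8 listed, 2 tested, both higher) summed to 0.81 to 1.66 TPM and 2.84 to 4.76 TPM, with CD2, MS4A1 and NKG7 at 0. The part of these shifts in the results for replication genes was not tested. Whether host mouse reads were removed is not given, so the marker sums do not measure the share of a cell type.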

How the data were processed

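Poly-A RNA from MHCC97L xenograft tumours was sequenced in 6 libraries, 3 per group, grouped by the labels. STAR 2.7.8 and RSEM 1.2.31 were used with GRCh38, per the submitters' processing notes. The authors deposited TPM, 1 table per library with a gene symbol per row, per the file headers. The annotation release, use of strand and removal of host mouse reads were not given in the sources. TPM keeps no depth, so depth is unknown and no counting interval is given; TPM also falls for other genes when abundant genes rise. Of 60725 rows, 2210 that shared a symbol with another were left out.

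A gene was fitted where its mean reached 1 TPM, as log2(TPM + 1) with limma 3.58.1 in R 4.3.3, with a variance trend and group as the only term (residual degrees of freedom, 4). All tests were two-sided, with Benjamini-Hochberg adjustment over 14781 genes and a threshold of 0.05. This scale understates changes of low genes. The fit was tested on simulated data. An exact permutation test of 3 against 3 has a smallest p of 0.1 and was not used. No batch or date is labelled. Alternatives were other scalings, pseudocounts, filters, a replicate block, a fold test, a length and GC correction and leaving out each library.

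The members and lists were chosen with earlier results of these data known. Per-library values are given, in each complex, for the called member with the smallest adjusted p in each direction and for called members that opposed their complex. ORC1, ORC4, MCM2, MCM3, POLA1, POLE2, POLD1 and CDC45 were added after their values were seen. From the related list, up to 4 genes per direction with the smallest adjusted p were named. Gene models came from GENCODE release 29 and promoters from RefSeq (GRCh38.p14).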

Additional observations from a re-analysis of the deposited data

How the results depend on the processing

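The depth of the libraries is unknown, and 3 libraries per group limit precision, most for the low members. As deposited, 38 members rose and 6 fell; 27 rises and all 6 falls held under median-of-ratios scaling, upper quartile scaling and rescaling without mitochondrial genes. After upper quartile scaling 12 members fell, with 5117 of all genes lower against 3299 as deposited. Against a fold change of 1.2, 26 of the 58 members rose and 3 fell. Of all 14781 genes, 4190 then rose, against 6571 as deposited, and 1811 fell. After the length and GC correction 12 members fell and 28 rose, with 4091 of 12835 genes lower and 4392 higher. Of the 56 related genes, 9 fell as deposited (16.1%, against 22.3% of all genes tested) and 15 after median-of-ratios scaling (26.8%, against 32.5%). After upper quartile scaling 15 of the 56 fell, against 34.6% of all genes. Against a fold of 1.2, 25 of the 56 rose and 3 fell, beside 4190 and 1811 of all 14781 genes. After the length and GC correction 16 fell (28.6%, against 31.9%). The members' median log2 difference of 0.35 was 0.16 after median-of-ratios scaling, 0.13 after upper quartile scaling, 0.25 without mitochondrial genes, 0.37 with a pseudocount of 0.1, 0.15 after the length and GC correction, and 0.33 to 0.37 when each library was left out. The median of all genes shifted by -0.18, -0.21, -0.09 and -0.15 under median-of-ratios scaling, upper quartile scaling, removal of mitochondrial genes and the length and GC correction.

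Among complex medians and members called as deposited, directions turned under the length and GC correction for the MCM8-MCM9 median (-0.064), MCM9 (-0.23) and WDHD1 (-0.19). They turned for RFC2 under upper quartile scaling (-0.0013), and for DUT under median-of-ratios (-0.032) and upper quartile scaling (-0.069). Members not called as deposited are left out of this list, and several turned too. TK1 went from 0.04 to -0.16 under median-of-ratios scaling. ORC2 (-0.25), CDC7 (-0.24) and TIMELESS (-0.20) turned under the length and GC correction. The fork protection median turned to -0.12 under median-of-ratios scaling, -0.16 under upper quartile scaling, -0.034 without mitochondrial genes and -0.20 under the length and GC correction. The cause was not tested. Same-letter libraries did not deviate together (r = 0.03, -0.02 and 0.08). With the letter as a replicate block, 39 members rose and 6 fell, and GINS3 was the only member whose call changed (adjusted p = 0.0324, limma).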
